A study of Mus musculus with 4 samples.

Results

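The subject is 307 CpG cytosines of mouse liver that were nearly unmethylated in a Mixed mouse and highly methylated in both B6 mice. They were selected on the measured values themselves. Among autosomal cytosines with a coverage of 10 or more in every one of the 4 mice, a cytosine was taken if its methylation level was at most 5% in at least 1 Mixed mouse and above 75% in both B6 mice. Of 1253673 such autosomal cytosines, 281510 were above 75% in both B6 mice, and 307 of these, or 0.109%, met the whole rule. The 307 cytosines lay at 278 CpG dinucleotides, because each strand of a CpG was measured on its own.

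Enhanced reduced representation bisulfite sequencing (ERRBS) was carried out on liver DNA of 4 male mice on normal chow, killed between 6 and 8 weeks of age, to ask whether background strain or housing alters the liver methylome. The B6 mice, B6-1 and B6-2, were of the inbred strain C57BL/6. For Mixed-1 and Mixed-2 the strains behind them were not defined beyond a contribution of C57BL/6J. The 2 groups were housed at different institutions, so that the strain of a mouse and its housing cannot be told apart. Which other strains entered the Mixed background, and in which share, is not given in the sources used here. Coverage summed over all cytosines was between 60654199 and 65176203 in the Mixed mice and between 91886997 and 99215153 in the B6 mice, with mean coverages of 44.2 to 49.0 and of 60.1 to 63.7. Of the marker genes of liver and neurons, 6 had common cytosines in their promoters: Apoa2 was at 0 to 1.22% in the 4 mice, Hnf4a at 23.1 to 32.3%, Fgb at 22.3 to 35.6%, and Rbfox3, Syt1 and Snap25 at 1.15 to 3.95%. Alb, Apoa1 and Ttr were not covered, so the labelled tissue could be checked only in part.

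A CpG is a cytosine followed by a guanine, and on the opposite strand the same 2 bases form a second CpG cytosine. DNA methyltransferases methylate both cytosines, and the maintenance enzyme Dnmt1 copies the mark to the new strand after replication, so the strands of a CpG usually carry like levels. CpGs close to each other also tend to share their state, and most CpGs outside islands and promoters are methylated in adult liver. Bisulfite turns unmethylated cytosine into a base read as T and leaves 5-methylcytosine as C. A T that is already in the DNA of a mouse is read in the same way, and the deposited percentages do not separate these sources.

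The reference sequence around 10 of the cytosines is shown first, because the results turn on single CpGs. These are members with the deepest coverage in the largest groups, in coding exons, in promoters and among the cytosines low in both Mixed mice. Each line gives the top strand of GRCm38 (mm10), 5′ to 3′, with the measured CpG in capitals in the middle of 30 bases.

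Mia3, exon, chr1:183357358-183357387: gccctggcttgctcCGcatctgtcccgtct
Ptprv, exon, chr1:135114618-135114647: atgggccgatgggtCGgcctggcagaagag
Dscaml1, intron, chr9:45534723-45534752: ggctgcttctgctgCGgatacattcctgtc
Npas3, intron, chr12:53823291-53823320: gcagcgaagcaacaCGgcctctaagcattc
Mast4, exon, chr13:102736958-102736987: tggcttctcctttgCGggcgtcccttccgg
Trim72, exon, chr7:128010356-128010385: gcgtctgcccgggcCGgtgtaccccatctt
Trerf1, intron, chr17:47319802-47319831: cttcaagcctccctCGacacctgcaaccac
Cdsn, promoter, chr17:35552199-35552228: caatgggttcctctCGggcaccccggatgg
Nfya, promoter, chr17:48400453-48400482: gccggcctgcaccaCGatctgctctgtgga
Abca3, exon, chr17:24408670-24408699: gaggggaagcaagaCGcgctagaggagttc

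The members fell into 3 kinds by which mouse was low. Mixed-1 alone was low at 193 cytosines, Mixed-2 alone at 76, and both Mixed mice at 38. Where Mixed-1 was the low mouse, Mixed-1 had a median level of 0%, Mixed-2 one of 90.9%, and the B6 mice medians of 93.3% and 93.2%. Where Mixed-2 was the low mouse, Mixed-2 had a median of 0% and Mixed-1 one of 57.3%, next to 90.4% and 91.7% in the B6 mice. The 38 cytosines low in both had medians of 0% in each Mixed mouse, 93.0% in B6-1 and 91.1% in B6-2. Mixed-1 was thus low at more of these cytosines than Mixed-2, while its coverage summed over all cytosines was the lower of the 2.

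The levels in the low mouse were mostly at the floor of the measurement. In 215 of the 307 members the lower Mixed value was exactly 0%, in 41 it was above 0% and up to 2.5%, and in 51 it was above 2.5% and up to 5%. Pooled over the 193 members low in Mixed-1 only, 101 of 7178 reads were methylated, or 1.41% (95% Wilson interval 1.16 to 1.71%). Over the 76 members low in Mixed-2 only, 14 of 3441 reads were methylated, or 0.407% (0.243 to 0.682%). These intervals cover counting error only, since amplified reads are not independent molecules. Just outside the rule, 39 cytosines had a lower Mixed value above 5% and up to 10%, 40 above 10% and up to 20%, and 71 above 20% and up to 30%, with both B6 mice above 75%. Of the 39 nearest ones, 30 were lowest in Mixed-1 and 9 in Mixed-2. On the B6 side, 38 members had a lower B6 value of 75 to 80% and 145 were above 90% in both B6 mice, while 36 cytosines missed the rule with a lower B6 value of 70 to 75%.

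The rule applied in the mirror direction, low in a B6 mouse and above 75% in both Mixed mice, found 2 of 286568 cytosines, or 0.000698%. At chr10:118500926, between genes and 1109 bp from Ifngas1, the levels were 96.6% in Mixed-1, 89.7% in Mixed-2 and 0% in both B6 mice. At chr11:51336737, in an intron of the collagen gene Col23a1, they were 85.0% and 85.2% in the Mixed mice and again 0% in both B6 mice. No cytosine was low in only 1 of the B6 mice under this mirrored rule. Both counts follow from values that chose the cytosines, so they are given as a description.

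**Figure D1:**
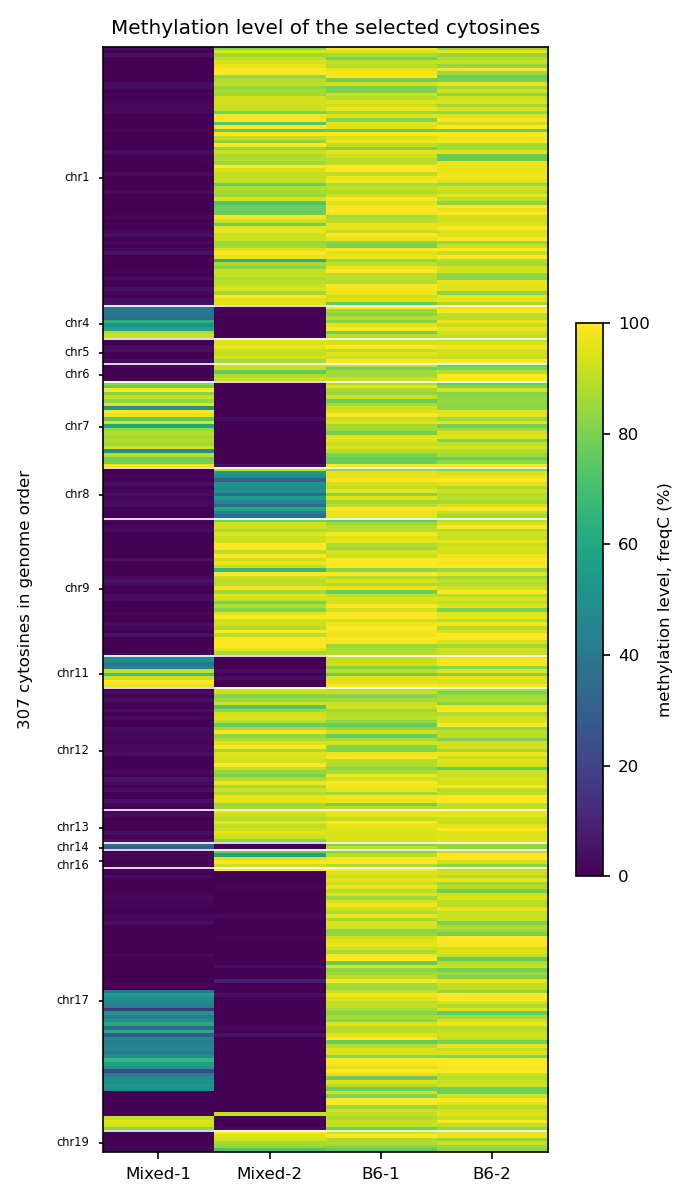
Methylation level (freqC, %, colour scale from 0 to 100) of the 307 cytosines in genome order (rows, white lines between autosomes) in the 4 mice (columns). The low Mixed mouse is the same along each chromosome except 17, which holds a run low in both, and the B6 columns stay above 75% because the rule required it.

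The members were unevenly spread over the genome. Chromosomes 17, 1, 9 and 12 held 73, 72, 38 and 34 of them, together 217 of 307 or 70.7%. Chromosome 7 held 24, chromosome 8 held 14, chromosomes 4, 11 and 13 held 9 each, chromosome 5 held 7, chromosome 19 held 6, chromosomes 6 and 16 held 5 each, and chromosome 14 held 2. Chromosomes 2, 3, 10, 15 and 18 had 0 members among 73148 cytosines above 75% in both B6 mice, which allows a share of up to 0.00410% if members are taken as independent. Per 1000 such cytosines the density was 5.62 on chromosome 17, 4.26 on chromosome 1, 2.86 on chromosome 12 and 2.60 on chromosome 9, and it was 0.188 to 1.26 on the other chromosomes with members.

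Which mouse was low went by chromosome. On 13 of the 14 chromosomes with members, all of them had the same low mouse. Mixed-1 was that mouse on 9 chromosomes (1, 5, 6, 8, 9, 12, 13, 16 and 19) and Mixed-2 on 4 (4, 7, 11 and 14). Chromosome 17 was the exception, with 3 members low in Mixed-1 only, 32 in Mixed-2 only and all 38 that were low in both.

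**Figure D2:**
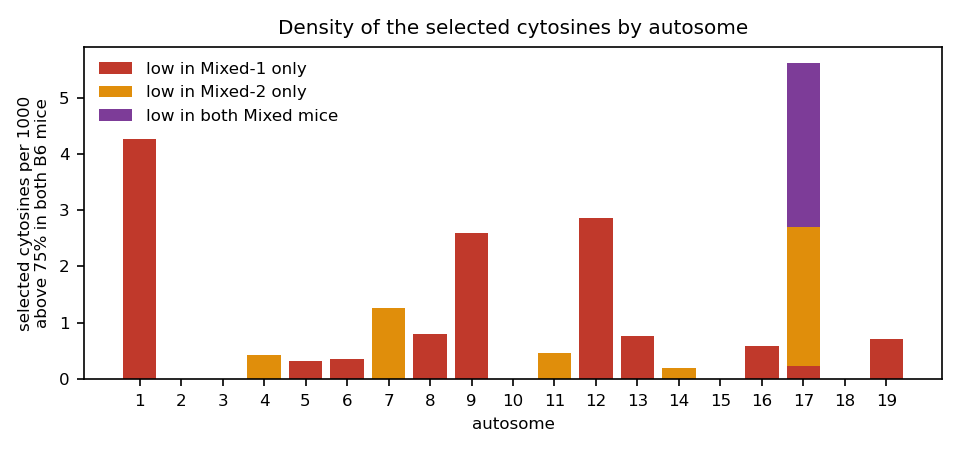
Members per 1000 autosomal cytosines above 75% in both B6 mice (y axis) for each autosome (x axis), stacked by the low mouse. Chromosome 17 reaches 5.62 and chromosome 1 reaches 4.26, 5 autosomes have 0, and only chromosome 17 carries more than 1 colour.

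Along the chromosomes the members formed groups. With members at most 1 Mb apart joined, there were 116 groups, of which 64 held 1 CpG and 52 held 2 or more. Those 52 groups took in 214 of the 278 CpGs, and within 51 of the 52 the low mouse (or both mice) was the same at every member. Taken as neighbours on a chromosome, 16 of 16 consecutive member CpGs up to 100 bp apart shared their low mouse or mice, as did 46 of 48 at 100 bp to 100 kb, 97 of 98 at 100 kb to 1 Mb, 74 of 76 at 1 to 5 Mb and 24 of 26 farther apart. Outside chromosome 17 such sharing had to follow, as each other chromosome had the same low mouse throughout. The size of a group depends on the joining distance, with 214 groups at 100 kb and 40 at 5 Mb, of which the longest spanned 39626276 bp of chromosome 1.

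The largest group, chr17:23970052-27608683, held 24 members at 22 CpGs, 21 of them low in both Mixed mice. Its most deeply covered member lay in a coding exon of Abca3, a lipid transporter of lung surfactant, at chr17:24408684. The levels there were 1.22% in Mixed-1 and 0% in Mixed-2, and 87.1% and 91.7% in the B6 mice, at coverages of 82, 89, 124 and 109. The Mixed and B6 values were far apart, and each rested on at least 82 reads.

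The second group, chr9:44102092-46206412, held 18 members at 14 CpGs, all low in Mixed-1. Its deepest member, at chr9:45534738 in an intron of the neuronal adhesion gene Dscaml1, was at 2.47% in Mixed-1 against 92.4% in Mixed-2 and 89.0% and 85.7% in the B6 mice. Mixed-1 alone stood apart from the other mice. On chr1:135114632-136579668, 8 members at 8 CpGs were likewise low in Mixed-1 only, led by the cytosine at chr1:135114632 in an exon of the receptor tyrosine phosphatase gene Ptprv with 1.28% in Mixed-1, 74.4% in Mixed-2, and 77.5% and 77.3% in the B6 mice. The group chr12:52416299-54227836 held 9 members at 8 CpGs, again low in Mixed-1 only. It lies over Npas3, which encodes a neuronal transcription factor, and its deepest member at chr12:53823305 was at 0%, 88.9%, 83.6% and 94.7% in the same order of mice.

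In the group chr17:46508967-47385519, all 9 members at 8 CpGs were low in Mixed-2, and Mixed-1 was intermediate. Its deepest member, at chr17:47319817 in an intron of Trerf1, which encodes a zinc finger protein, was at 0% in Mixed-2, 52.2% in Mixed-1, 95.7% in B6-1 and 99.0% in B6-2. Mixed-1 thus lay about midway between Mixed-2 and the B6 mice. Over the 9 members of this group, Mixed-1 ranged from 22.5 to 65.9% with a median of 45.5%.

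Most cytosines in these intervals were no members. In the 40 stretches made by joining members at most 5 Mb apart, members were 307 of 30498 cytosines above 75% in both B6 mice, or 1.01%. The remaining ones, which by the rule were above 5% in both Mixed mice, averaged 90.6% and 91.2% in the Mixed mice and 91.6% in each B6 mouse. Outside the stretches the averages were 90.7% and 91.3% in the Mixed mice, and 91.7% and 91.6% in the B6 mice. Levels of 25 to 75% were found at 5.64% of those cytosines inside and 5.54% outside the stretches in Mixed-1, and at 4.92% and 4.55% in Mixed-2, with no test made. The members were thus scattered CpGs among others whose mean levels inside and outside the stretches were within 0.2 points of each other.

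The Mixed mouse that was not low had 1 of 2 kinds of value. Of the 269 members low in a single Mixed mouse, 201 were above 75% in the other Mixed mouse, with a median of 91.7%. Intermediate levels of 25 to 75% were found at 65 of them, or 24.2% (95% Wilson interval 19.4 to 29.6%), with a median of 49.3%. Only 3 had a level between 5 and 25%. Narrower bounds of 35 to 65% still took in 53 of the 65. The interval takes members as independent, which those of 1 chromosome or CpG may not be, so it may be too narrow.

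These intermediate levels were also grouped by chromosome. On chromosome 8, Mixed-2 was intermediate at 13 of the 14 members low in Mixed-1, and in the stretch chr8:69257583-77317169 all 12 members had Mixed-2 at 30.8 to 59.4%. On chromosome 4, Mixed-1 was intermediate at 7 of 9 members low in Mixed-2, on chromosome 11 at 5 of 9, on chromosome 14 at both of 2 and on chromosome 7 at 4 of 24. On chromosome 17, described below, this was so at 26 of 32 members low in Mixed-2 only. Mixed-2 was intermediate at only 4 of 72 members on chromosome 1, at 1 of 38 on chromosome 9, at 1 of 34 on chromosome 12 and at 0 of 9 on chromosome 13. Of all 65 intermediate values, 53 were at 35 to 65%, but some of the others lay close to the B6 levels. An example is chr11:117242318, with Mixed-1 at 69.8% against 76.8% in B6-1 and 80.7% in B6-2. Intermediate levels made up 10.9% of the members low in Mixed-1 and 57.9% of those low in Mixed-2. The median coverage of the other mouse was 42 reads in the first case and 39.5 in the second.

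**Figure D3:**
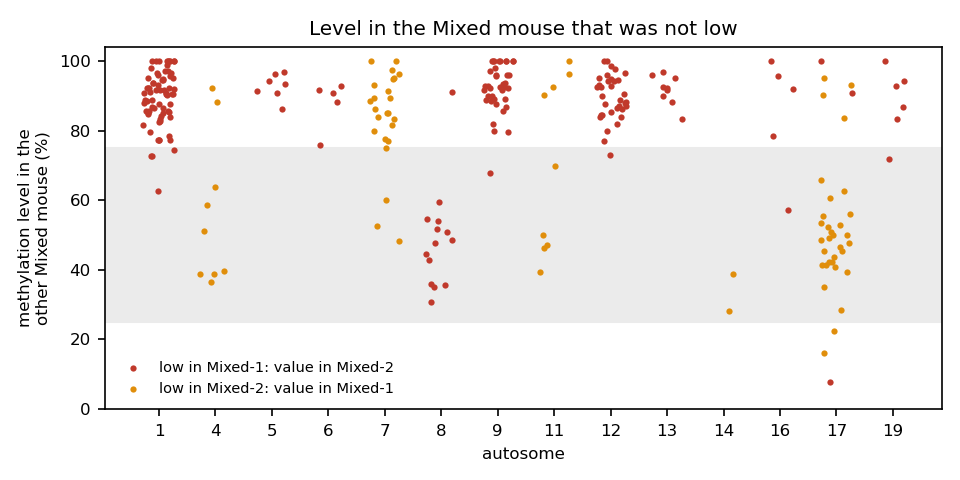
Methylation level of the Mixed mouse that was not low (y axis, %) at the 269 members low in 1 Mixed mouse, by autosome (x axis), coloured by the low mouse, with the band of 25 to 75% in grey. Values of Mixed-2 on chromosome 8 lie at 30.8 to 59.4% apart from 1 at 91.2%, whereas those on chromosomes 1, 9 and 12 sit mostly above the band, with medians of 90.8%, 92.7% and 89.4%.

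Chromosome 17 held several patterns in turn. The first member, at 5758437, was low in Mixed-1 only, with 0% in Mixed-1 and 100% in Mixed-2. From 7878975 to 27174226, 32 of 33 members were low in both Mixed mice, and at the remaining cytosine Mixed-1 was at 0% and Mixed-2 at 7.69%. From 27589726 to 48519779, all 28 members were low in Mixed-2 only, and Mixed-1 was at 16 to 65.9%, intermediate at 26 of them. From 50799835 to 55270143, 6 members at 3 CpGs were again at 0% in both Mixed mice. A cytosine at 66869778 was low in Mixed-1 only, with Mixed-2 at 90.9%, and the last 4 members, from 87197979 to 88160889, were low in Mixed-2 only, with Mixed-1 at 83.6 to 95.2%. B6-1 lay between 76.2 and 100% and B6-2 between 76 and 100% throughout, as the rule required.

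**Figure D4:**
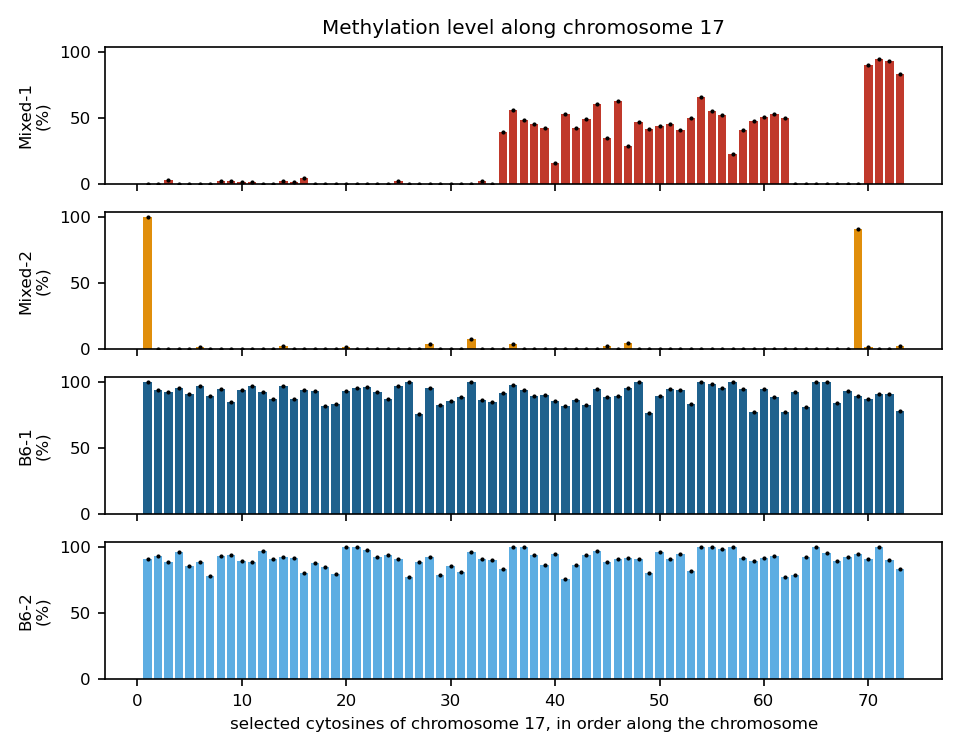
Methylation level (y axis, %) in each mouse (panels) at the 73 members of chromosome 17, numbered in their order along it (x axis), with a black point at each value. Mixed-1 passes from near 0% to 16 to 65.9% and back to 0% before its last 4 members at 83.6 to 95.2%, while Mixed-2 is at most 7.69% at all but 2 cytosines.

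Cytosines low in both Mixed mice were found on chromosome 17 only. At chr17:26437253, in an intron of the ubiquitin ligase gene Neurl1b, the levels were 0% in both Mixed mice, 82.8% in B6-1 and 79.1% in B6-2. An intergenic CpG 8025 bp from the vomeronasal receptor gene Vmn1r233 was low on both of its strands, with 1.61% and 1.64% in Mixed-1, 0% in Mixed-2, 94.1% and 97.4% in B6-1, then 89.6% and 88.8% in B6-2. The values of both places are those that the rule used.

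Genes with several member CpGs showed the same mouse low along their length. Of 156 genes with a member in their transcribed region or promoter, 30 had at least 2 member CpGs, and in 29 of the 30 the low mouse was the same throughout. Outside chromosome 17 this had to be so, as each other chromosome had the same low mouse throughout. Some of the 30 genes overlap and share their CpGs. Npas3 had 4 member CpGs (5 cytosines) spread over 753729 bp, at 0 to 3.85% in Mixed-1, 76.9 to 94.8% in Mixed-2, 77.1 to 90.1% in B6-1 and 88.1 to 100% in B6-2. Esrrg, which encodes an orphan nuclear receptor, had 3 over 288707 bp, at 0 to 3.85% in Mixed-1 and at 88.7% or above in each other mouse. At the 3 CpGs of Nav1, a gene of axon guidance, Mixed-1 was at 0% at each and the other mice were at 82.6 to 100%.

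Nlrx1, which encodes a mitochondrial protein of the NOD-like receptor family, had 3 member CpGs (5 cytosines) within 4540 bp. All 5 were at 0% in Mixed-1 and between 85.2 and 100% in the other 3 mice. Glis1, which encodes a Krüppel-like zinc finger factor, had 3 CpGs within 11849 bp on chromosome 4 with Mixed-2 as the low mouse. There Mixed-2 was at 0%, Mixed-1 at 36.6%, 63.9% and 51.3%, B6-1 at 81.6 to 95.2% and B6-2 at 89.4 to 96.4%. The second member of Abca3, an intronic cytosine 53 bp from the exonic one, was at 4.17% and 0% in the Mixed mice and at 93.8% and 80.8% in the B6 mice.

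The members with the deepest coverage outside repeats were as follows. At chr1:183357373, in a coding exon of Mia3, whose product exports collagen from the endoplasmic reticulum, the level was 0.971% in Mixed-1 and 91.7%, 100% and 93.5% in the other 3 mice, at coverages of 103, 109, 112 and 123. At chr13:102736973, in a coding exon of the kinase gene Mast4, it was 2.38% against 92.5%, 96.2% and 96.1%. At chr7:128010370, in a coding exon of Trim72, a gene of membrane repair, Mixed-2 was the low mouse with 0%, and Mixed-1 was at 84.9%, B6-1 at 85.7% and B6-2 at 87.0%. In each of these only 1 mouse departed from the other 3. Members in introns of Adck1 and Sgpp2 and 12375 bp from Arf6 had Mixed-1 at 1.47 to 4.62% and every other mouse at 83.6% or above.

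Promoters, taken as 1000 bp on each side of the start of any annotated transcript, held 26 members. A cytosine there was counted as promoter also where it lay in an exon. In the promoter of Cdsn, which encodes a skin adhesion protein, Mixed-1 was at 49.3% and Mixed-2 at 0% against 82.5% and 94.0% in B6-1 and B6-2. In that of Nfya, which encodes a subunit of the CCAAT-binding factor, they were at 50.9% and 0% against 94.8% and 92.1%. The members of Cdsn and Nfya also lay in coding exons of these genes, so their levels need not be those of the main promoter. The promoter member of Gm36199 had 45.3% and 0% against 90% and 94.4%, so that in all 3, which lie on chromosome 17, Mixed-1 was intermediate. By contrast, the promoter member of Gm35170 on chromosome 11 was at 92.5% in Mixed-1 and 3.70% in Mixed-2, and that of Gm8900 on chromosome 16 was at 1.89% in Mixed-1 and 95.7% in Mixed-2, with both B6 mice at 94.4% or above.

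None of the members lay in or up to 5000 bp upstream of genes of the 8 lists examined. These were imprinted genes, hepatocyte plasma proteins, liver transcription factors, and the Cyp, H2-, Olfr, Vmn and Zfp families, which held 178, 58, 85, 368, 43, 219, 212 and 3713 cytosines above 75% in both B6 mice. A count of 0 still allows a share of up to 0.0808% in the Zfp family and of 0.815% in the Cyp family, against 0.109% of all such cytosines. These limits take cytosines as independent, which members grouped along chromosomes may not be. Neither family can thus be said to differ from the rest.

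Relative to genes, the members were set beside all 281510 cytosines above 75% in both B6 mice. Introns held 128 members (41.7% against 35.9%), intergenic sequence 108 (35.2% against 32.7%), exons 45 (14.7% against 24.4%) and promoters 26 (8.47% against 7.03%). Soft-masked repeats held 13.4% of the members against 19.7%. The window of 201 bases around a member had a median of 6 CpGs in both sets and a median GC content of 53.2% against 53.7%. These shares are given with no test, as members of 1 group may not be independent of each other.

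The members were seldom at a site of MspI. MspI, the enzyme that the labels name for cutting the DNA, recognises CCGG, which reads the same on both strands. The sites of any other enzyme were not searched. Only 25 of the 307 members, or 8.14% (95% Wilson interval 5.58 to 11.7%), were the CpG of a CCGG in the reference, against 51.9% of the 281510 cytosines. The interval takes members as independent, which those of 1 group or CpG may not be. The share was similar by kind, with 17 of 193 low in Mixed-1 only, 7 of 76 low in Mixed-2 only and 1 of 38 low in both. Of the sequences shown, only that of Trim72 has its CpG in a CCGG. All 307 members were a CpG of the reference genome, and 153 of them were on the forward strand. This share is a description, and its cause was not tested.

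Coverage at the members was close to that elsewhere. Coverage was divided at each cytosine by the mean of the B6 mice. The median of this ratio was 0.622 in Mixed-1 and 0.739 in Mixed-2, against 0.641 and 0.768 over the 281510 cytosines. At members low in Mixed-1 only, the Mixed-1 ratio was 0.600, and at those low in Mixed-2 only, the Mixed-2 ratio was 0.789. Reads with a base other than C or T, which the files keep in the coverage, occurred at 0 of the 307 members in either Mixed mouse and in B6-1, and at 3 (0.977%) in B6-2. They occurred at 0.295% and 0.271% of the 281510 cytosines in Mixed-1 and Mixed-2, shares so small that 0 among 307 says little. No cytosine in the files had more than 9.86% of such reads, so places with a higher share could not be seen.

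The opposite strand of the same CpG, called here the strand partner, gives a second measurement. Both strands were covered in all mice at 41 member CpGs, and at 29 of these both strands met the rule. The other 12 partners fell outside the rule on at least 1 value. They belong to CpGs that the rule chose by the other strand, and pairs that met it on both strands were left out. They show how alike the strands were, but are no separate test of Mixed against B6. In the mouse where the member was low, 11 of the 12 partners were at most 10%, and the highest was at 10.5%. Mixed-1 averaged 11.3% and Mixed-2 68.6% over them, and the B6 mice 85.5% and 85.9%.

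As group means, the Mixed level at the 12 partners was 40.0% ± 40.5 (SD, n = 2) and the B6 level 85.7% ± 0.323 (SD, n = 2). The difference was -45.7 points. Both Mixed mice lay below both B6 mice, which the choice of these CpGs by the rule favours. The two-sided exact permutation test over the 6 assignments of mice gave p = 0.333, the smallest that 2 mice against 2 allow. With members found anew without Mixed-2, the difference was -81.2 points at 11 partners, and without Mixed-1 it was -79.6 points at 2. Such members were by the rule low in the only Mixed mouse left, so these larger differences were largely fixed by the choice. In the logistic model fitted to all 1276684 common cytosines with overdispersion moderated by limma, 78 or 0.00611% were called, which took a difference of at least 25 points and a p under 0.01 after Benjamini-Hochberg adjustment. Of the 12 partners, 1 was called, at chr17:8351254, with 0% in both Mixed mice, 75% in B6-1 and 95.2% in B6-2 (adjusted p = 0.00867). An unadjusted p under 0.05 was found at 10 of them, against 2.03% of all common cytosines. The rule chose their CpGs by the other strand, so neither count is a test of Mixed against B6. Counts of called partners with a mouse left out are not given, as such fits leave a group with a single mouse.

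At intermediate members the strands were also alike. On chromosome 8, a CpG at 72671014 low in Mixed-1 had Mixed-2 at 54.0% on the forward and 44.4% on the reverse strand. The CpG at 48400467 on chromosome 17, in a coding exon near the start of an Nfya transcript, was at 47.8% and 50.9% in Mixed-1 on its 2 strands. The pair at 47385518 differed more, with 22.5% on the forward and 40.7% on the reverse strand.

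Partners were also absent from the file of the low mouse more often than elsewhere. Taking each member with each of its low mice, the partner was in the files of the other 3 mice in 105 cases, and in 20 of them, or 19.05%, it was not in the file of the low mouse. Among the cytosines above 75% in both B6 mice that were not low, the partner was absent in 1.95% of 67005 cases for Mixed-1 and in 2.61% of 67496 for Mixed-2. The files list only cytosines with at least 10 reads, and why a partner was missing was not tested.

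Cytosines of other CpGs near a member were highly methylated in all 4 mice on average. Within 50 bp of a member CpG there were 695 cytosines that were no member, near 258 of the 278 CpGs. Neighbours that met the rule themselves were left out of these, and 10 pairs of member CpGs lay within 50 bp of each other. They averaged 86.5% and 88.3% in Mixed-1 and Mixed-2, next to 88.0% and 88.3% in B6-1 and B6-2. The group means of 87.4% ± 1.27 (SD, n = 2) and 88.2% ± 0.172 (SD, n = 2) differed by -0.743 points, which was less than the spread between the Mixed mice (two-sided exact permutation test, p = 1). The difference was -1.98 points without Mixed-2 (p = 0.333 by exact permutation) and -1.59 points for members above 90% in both B6 mice. With the 20 neighbouring cytosines that were members kept, which was tried after seeing the data, the 715 neighbours averaged 84.5% and 87.6% in the Mixed mice and 88.2% and 88.4% in the B6 mice, a difference of -2.26 points (exact permutation p = 0.333).

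Neighbours were also set by the low mouse, again without those that met the rule. Near the members low in Mixed-1 only, 435 neighbours averaged 86.7% in Mixed-1 against 89.3% in Mixed-2, and 88.8% and 88.4% in the B6 mice. Near those low in Mixed-2 only, 184 neighbours averaged 86.4% in Mixed-2 against 85.8% in Mixed-1, 86.0% in B6-1 and 87.1% in B6-2. At 1 to 10 bp from a member low in Mixed-1, the neighbours were at 86.4% in Mixed-1, below the 91.1%, 90.6% and 89.7% of the other mice. Near the members low in both, 76 neighbours averaged 87.1% and 87.3% in the Mixed mice and 88.7% and 90.4% in the B6 mice, and the 13 of them at 1 to 10 bp were at 79.8% and 80.2% against 86.4% and 90.4%. These means are across cytosines near one another, which are not independent, and no test was made on them.

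**Figure D5:**
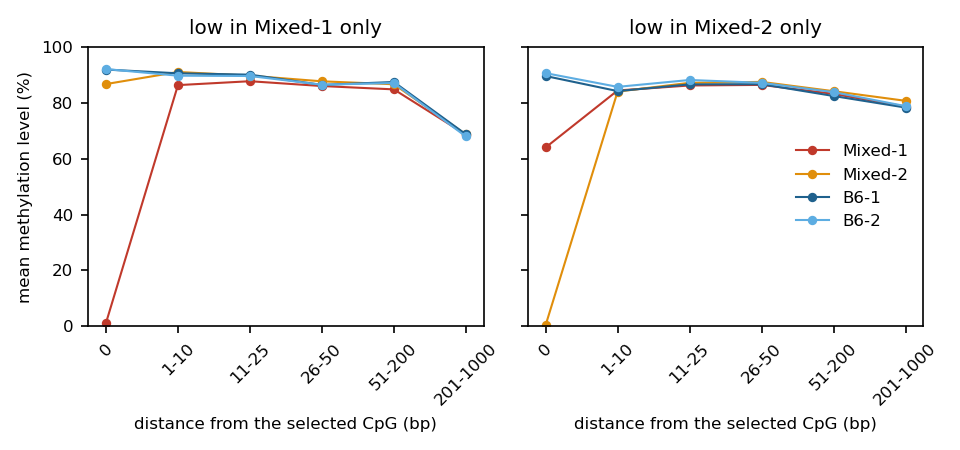
Mean methylation level (y axis, %) in each mouse (colours) at members low in Mixed-1 only (left) or Mixed-2 only (right), at distance 0, and at cytosines of other CpGs that were no member, by distance in bp (x axis, bins not to scale); members low in both are not drawn. The low mouse is at 1.20% or 0.423% at the member, which the rule fixed, and at 86.4% or 84.0% at 1 to 10 bp.

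By the model over all common cytosines, 0 of the 695 neighbours were called, against 0.00611% of all, a share so small that this 0 says little. It called 43 of the 307 members, but the rule had chosen these on the same values, so that count is no yardstick for the neighbours. Of the neighbours, 38 (5.47%) had an unadjusted p under 0.05, against 2.03% of all common cytosines, most of which are nearly unmethylated. A difference of at least 25 points together with such a p was found at 8 neighbours (1.15%), against 0.296% of all. The edgeR test called 0 neighbours and Fisher's exact test on pooled reads called 2. The fit with the replicate number as a block called 0 of all common cytosines, so that its 0 among neighbours says nothing about them.

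A few neighbours were lower too. Among the 579 neighbours above 75% in both B6 mice, 11 (1.90%) were over 25 points below the B6 mean in the low mouse. In Mixed-1 and Mixed-2, this was so at 0.923% and 0.654% of all cytosines of this level with another such CpG within 50 bp. The lowest of the 11, at chr1:170599750 and 44 bp from a member, was at 7.41% in Mixed-1 against 94.4%, 95.3% and 97.1% in the other 3 mice, just outside the rule. In the low mouse the other 10 were at 35.7% or above.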

How the data were processed

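ERRBS of liver DNA of 4 male mice was used. Per the labels, the DNA was cut with MspI and converted with bisulfite. Per the methods of the study, the authors ran 50 cycles of single-end sequencing and used BSMAP for mapping to mm10, while the submitters' processing notes name Bismark and SAMtools. The authors deposited, for each mouse on its own and without normalization, the coverage of each CpG cytosine as a count of reads, with a minimum of 10, and the percent of reads that were C (freqC, the methylation level) or T. Groups and replicate numbers came from the sample labels.

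Cytosines present in all 4 mice were joined and placed on GRCm38 with its RefSeq annotation. The percent times the coverage gave the number of methylated reads. Members, lists and named items were chosen with earlier results of these data known. The named items were the 5 largest groups, the 10 deepest unmasked members, the 5 deepest promoter members, the 6 genes with most member CpGs, the 5 deepest members low in both Mixed mice, and members at listed genes. CpGs shown as sequences were taken from these. Some of these items are not reported here.

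The groups were compared by exact, two-sided permutation of the mice. Single cytosines were compared with a logistic model whose overdispersion was moderated with limma 3.58.1 towards a prior from cytosines with a pooled level of 10 to 90%, under R 4.3.3. On simulated data of 100000 cytosines with real coverage, 200 were changed by 50 points, alike in both Mixed mice. The model recovered 117 of these and called 0 unchanged ones. Most members were low in a single Mixed mouse, so this recovery need not hold for them. The recovery asked for was lowered after the 117 were seen. Alternatives were higher coverage, a coverage ceiling, no repeats, other bounds, merged strands, other distances, Fisher's exact test, edgeR 4.0.16 on the deposited read counts, the replicate number as a block, and leaving out each mouse. Python 3.11.15, numpy 2.4.6, pandas 2.3.3, scipy 1.17.1 and matplotlib 3.10.9 were used. At 10 reads, 3 methylated reads already make 30%.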

Additional observations from a re-analysis of the deposited data

Results flagged for a closer look

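Cytosines that 1 Mixed mouse lacked were outside the comparisons above, and the same low values were found among them. Of 21017 autosomal cytosines above 75% in both B6 mice and covered in Mixed-1 but not in Mixed-2, 23 (0.109%) were at most 5% in Mixed-1. Of 13527 covered in Mixed-2 but not in Mixed-1, 5 (0.0370%) were at most 5% in Mixed-2. In the mirrored direction there were 0 of 1012 cytosines missing in B6-2 and 0 of 2288 missing in B6-1. With cytosines taken as independent, these allow shares of up to 0.296% and 0.131%, so at this depth the mirrored shares could not be shown to be lower. On chromosome X, outside the rule as well, 0 of 6214 cytosines met it and 1 of 6306 met the mirrored rule.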

How the results depend on the processing

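With freqC of both B6 mice above 90%, the member count fell from 307 to 145, and leaving out each mouse gave 114 to 346 members. The lowest count was that without Mixed-1, while without Mixed-2 there were 231. The number of groups was 214 with members joined up to 100 kb and 40 up to 5 Mb. Of the 12 strand partners, 0 were called with the replicate number as a block and 0 at a minimum coverage of 20, 9 were called by Fisher's exact test, and 2 to 8 when each mouse was left out. Of the neighbours, 2 were called by Fisher's exact test and 0 to 1 when each mouse was left out. The paired differences of same-numbered mice averaged -45.7 points at the partners and -0.743 points at the neighbours, as they must. Deviations of same-numbered mice had a correlation of -0.000207 over all common cytosines and of 0.000363 over those with a mean level of 20 to 80%. No pairing by number was thus seen, but whether same-numbered mice shared a step of the work was not tested. In the whole table the calls went from 78 to 0 with the block, 144 with edgeR and 1610 with Fisher's exact test, and the cause was not tested. The share of intermediate members stayed at 19.7 to 28.9%. The sign of both differences was the same in every alternative run, from -81.2 to -37.5 points at the partners and from -2.26 to -0.468 points at the neighbours. At the partners, the choice of CpGs by the rule favours this sign. The share of members in CCGG, tried after seeing the data, stayed at 7.02 to 11.03%. With 2 mice a group, no permutation test could pass 0.05, and single values are limited by coverages that go down to 10 reads.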
